A study of Chromochloris zofingiensis with 14 samples.

Results

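Rubisco activase RCA1 (Cz03g15230), the Rubisco accumulation factor RAF (Cz09g07180), the chloroplastic fructose 1,6-bisphosphatase FBP (Cz01g04250), the transketolase TRK (Cz03g04080) and the ribose-5-phosphate isomerase RPI2 (Cz01g08190) are nuclear genes annotated with activities used in carbon fixation in the green alga Chromochloris zofingiensis. They were chosen by gene ID in the deposited annotation, and all 5 were found among its 15369 gene models, of which 14427 lie on chromosomes. The study sequenced 1 library of rRNA-depleted total RNA from each of 14 growth conditions of the strain SAG 211-14. Cultures grew in medium light (100 μmol photons per square metre and second), in low (40) or high (400) light, or for 48 h in the dark. In medium light others were kept for 1 h without N, P, S or Fe, for 72 h with 20 mM glucose, for 4 h anaerobic, or for 2 h with 1 mM H2O2. Rose Bengal was given at 5 µM in the dark, followed by medium light. The culture labelled low RB had 0.5 h of dark and 1 h of light. That labelled high RB had 1 h of dark and 3 h of light. A further culture was anaerobic for 4 h in the dark. The annotation holds no value of any library, so the levels of these genes in those conditions were not analysed here. What follows describes the gene models themselves, and no comparison between conditions was made.

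The Calvin cycle of the chloroplast stroma uses the enzyme Rubisco to join carbon dioxide to ribulose bisphosphate, and other enzymes then rebuild that acceptor from the sugar phosphates that form. Rubisco needs helper proteins, since its active sites become blocked by sugar phosphates and its large subunits must be assembled into the holoenzyme. RCA1 is annotated as an activase, an ATP-driven protein that removes such inhibitors, and RAF as an accumulation factor, which in plants and algae assists assembly of the large subunits. FBP, TRK and RPI2 are annotated with enzyme activities of the regeneration phase. Fructose 1,6-bisphosphatase removes a phosphate to give fructose 6-phosphate, transketolase moves a pair of carbons between sugar phosphates, and ribose-5-phosphate isomerase turns ribose 5-phosphate into ribulose 5-phosphate. Only the annotation of FBP names the compartment, and no protein sequence was used here to place the others. Whether TRK and RPI2 act in the cycle was therefore not tested.

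The annotation gives 1 transcript to every gene and no untranslated sequence, so each span below runs from the first to the last coding base. Positions are counted from 1 on the assembly listed in the annotation's header, for which no source used here names a build. The bases that separate a coding segment from the next are taken as an intron. Its phase is the number of bases of the interrupted codon that stand before it, so that phase 0 lies between codons. A percentile gives the share of chromosomal gene models with a lower value, with a model of equal value counted as 0.5. The score of a gene model, which the authors deposited without saying what it measures, ran from 0.01 to 1 with a chromosomal median of 0.78.

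All 5 genes held introns, as did 12110 of 14427 chromosomal gene models. Together the 5 genes had 36 coding segments and 31 introns. Their coding lengths ran from 1035 bases in RPI2 to 2163 bases in TRK, with a median of 1494 bases, against a median of 1062 bases over chromosomal gene models. The coding length was above that chromosomal median in 4 of the 5 genes, RPI2 being the exception. It was a multiple of 3 in all 5, but the share over all gene models was not computed. The intron number ran from 4 in RAF to 8 in TRK and RPI2, above the chromosomal median of 3 introns in each of the 5 genes. Among named chromosomal genes the median was 4.5 introns, and RAF lay below it. All 3 phases occurred within 1 of the genes, TRK, and the share of such genes over all chromosomal gene models was not computed.

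**Figure D1:**
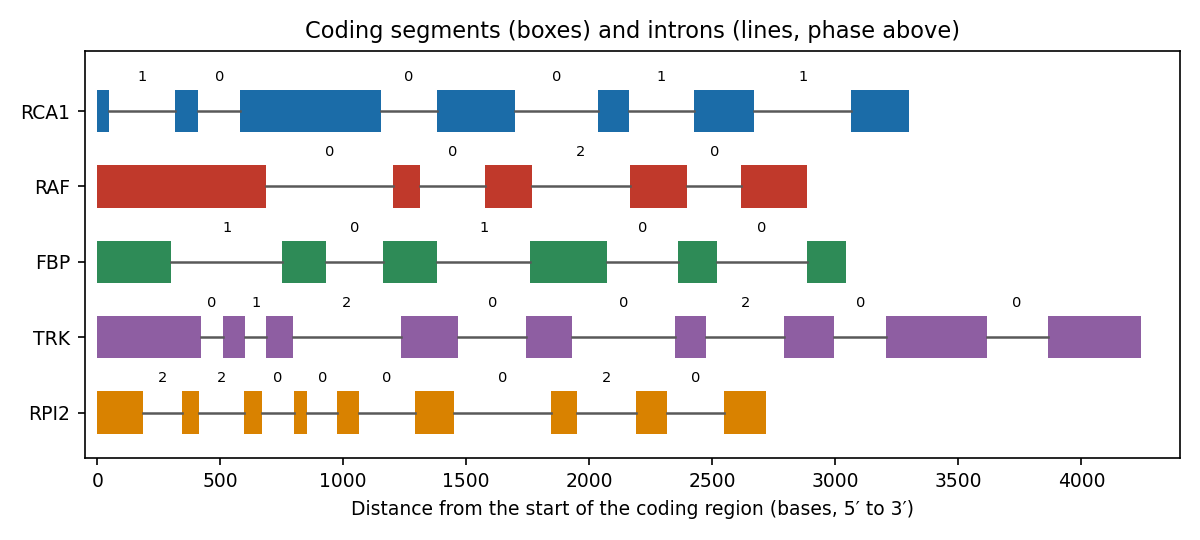
Structure of the 5 genes drawn to scale, with the distance from the start of the coding region in bases on the x axis. Boxes are coding segments, lines are introns, and the digit above each intron is its phase; RAF opens with a segment of 687 bases, RCA1 with one of 49 bases, and RPI2 splits 1035 coding bases over 9 segments.

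RCA1 lay on the minus strand of chromosome 3 (1573267 to 1576566), with 1638 coding bases, or 546 codons with any stop codon counted, in 7 segments. The model came from the gene predictor AUGUSTUS with a score of 0.83. From 5′ to 3′ the segments had 49, 95, 570, 315, 127, 246 and 236 bases. The third segment, the longest, was at the 90.7th percentile of chromosomal segments, and the first was at the 3.12th. The introns between them had 266, 172, 231, 336, 263 and 394 bases. The fourth and the last, of 336 and 394 bases, lay above 320 bases, the upper quartile of chromosomal introns. The last was at the 91.5th percentile. The phases in order were 1, 0, 0, 0, 1 and 1. The first intron stood after 49 coding bases. A first intron within 50 coding bases was found in 1444 of 12110 chromosomal genes with an intron, or 11.9%, and in no other of the 5 genes. Among the models matched for the Calvin cycle below, at least PRK also had its first intron after 49 coding bases.

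RAF lay on the plus strand of chromosome 9 (778936 to 781821), with 1494 coding bases in 5 segments. It was made manually per the source column and carries no score. Its first segment had 687 bases, at the 92.9th percentile of chromosomal segments, and was followed by segments of 111, 191, 235 and 270 bases. The first intron, of 514 bases, was the longest of all 31. It was at the 98.5th percentile of chromosomal introns, of which 1.79% had at least 500 bases. By gene, 961 of 12110 chromosomal genes with an intron, or 7.94%, held such an intron. Among the models matched below, RBCS (596 bases), SBP on chromosome 1 (516), PGK (514), FBP2 (512), FBP3B (641) and GND (500) also did. The later introns of RAF had 264, 397 and 217 bases, and the phases in order were 0, 0, 2 and 0. RAF had 2.68 introns per 1000 coding bases, the lowest density of the 5 genes and at the 46.2nd percentile of chromosomal gene models.

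FBP lay on the minus strand of chromosome 1 (494044 to 497088), with 1332 coding bases in 6 segments of 301, 176, 220, 314, 159 and 162 bases and an AUGUSTUS score of 0.83. The introns had 452, 232, 379, 287 and 363 bases, with the first, at the 96.6th percentile, the longest. The mean intron length of 342.6 bases was at the 87.3rd percentile of chromosomal genes with an intron, next to the 348 bases of RAF at the 88.6th. Phases were 1, 0, 1, 0 and 0. FBP differed from the other 4 genes in how it is labelled: its name carries no version mark, and none of its 6 coding segment lines repeats the name, whereas in the others every segment line does. Among 492 named chromosomal genes, 374 carry the mark.

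TRK lay on the plus strand of chromosome 3 (440923 to 445163) and was also made manually. It had the longest coding region, 2163 bases or 721 codons with any stop codon counted, at the 81.3rd percentile. The 9 segments had 423, 91, 109, 235, 186, 128, 205, 408 and 378 bases, so that the long segments stood at both ends. The introns had 88, 86, 436, 275, 418, 316, 211 and 248 bases. The first and the second, at the 3.37th and 3.09th percentiles, were the 2 shortest of all 31 and the only ones of 100 bases or fewer, a size reached by 4.36% of chromosomal introns. Both opening introns had 100 bases or fewer in 379 of 9964 chromosomal genes with at least 2 introns, or 3.80%. The third intron, directly after them, was the longest of the gene at 436 bases and the 95.7th percentile. Phases in order were 0, 1, 2, 0, 0, 2, 0 and 0.

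RPI2 lay on the plus strand of chromosome 1 (863913 to 866629), with an AUGUSTUS score of 0.98, the highest of the 3 scored genes. It had the shortest coding region and, with TRK, the most introns. Its 9 segments had 185, 69, 73, 54, 90, 162, 107, 127 and 168 bases, and the fourth, of 54 bases, was at the 3.92nd percentile of chromosomal segments. The mean segment of 115 bases was at the 5.04th percentile of chromosomal gene models. With 7.73 introns per 1000 coding bases RPI2 was at the 97.6th percentile, while the other 4 genes had 2.68 to 3.75 and lay between the 46.2nd and 64.6th. Of the 548 chromosomal genes with 8 introns, RPI2 included, the median coding length was 1950 bases, and the 1035 bases of RPI2 stood at the 4.01st percentile of them. TRK, in the same set, was at the 62.1st.

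The introns of RPI2 had 158, 184, 130, 123, 224, 391, 238 and 234 bases. Except for the sixth, at the 91.1st percentile, each was below the chromosomal median of 260 bases. Its mean of 210.25 bases was at the 20.4th percentile of genes with an intron, the lowest of the 5 genes. Introns nevertheless made up 61.9% of the span of RPI2, the highest share of the 5 genes. That share was at the 91.6th percentile of chromosomal gene models, those without an intron included. It was 48.2% in RAF, 49.0% in TRK, 50.4% in RCA1 and 56.3% in FBP. Among the models matched for the Calvin cycle below, RBCS had 68.1%, FBP1 67.1%, SBP on chromosome 1 64.8%, PGK 62.5% and FBP2 62.2%. The other matched models had lower shares than RPI2. The phases in order were 2, 2, 0, 0, 0, 0, 2 and 0, so that the third to sixth introns all lay between codons.

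**Figure D2:**
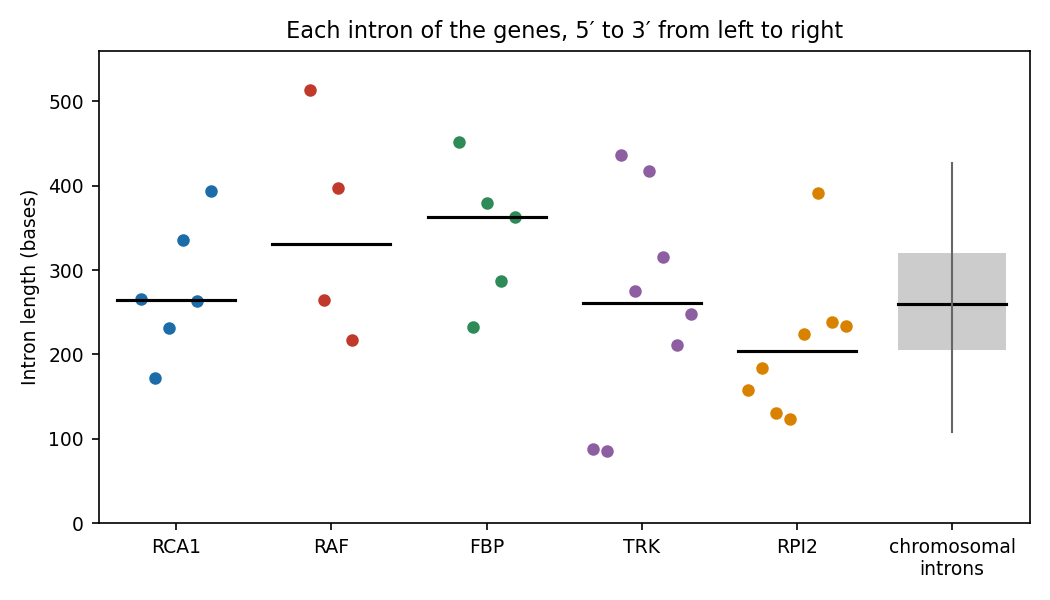
Length in bases of each of the 31 introns on the y axis, by gene, with the introns of a gene in 5′ to 3′ order from left to right and a bar at their median. At the right, the grey box spans the quartiles of 58871 chromosomal introns (205 to 320 bases), the bar is their median (260 bases) and the line runs from the 5th to the 95th percentile (108 to 427 bases); the first introns of RAF and FBP and the third of TRK lie above that line and the 2 opening introns of TRK below it.

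Taking the 31 introns as a set, their median length was 263 bases, close to the 260 bases of all chromosomal introns, and 16 of them exceeded the chromosomal median. The spread was wide within genes: RAF ran from 217 to 514 bases and TRK from 86 to 436. The first intron was the longest in RAF and FBP, the third longest in RCA1, the sixth in RPI2 and the seventh in TRK. Median intron lengths by gene were 264.5 bases in RCA1, 330.5 in RAF, 363 in FBP, 261.5 in TRK and 204 in RPI2. Phase 0 held 19 of the 31 introns, 61.3%, against 52.9% of 58871 chromosomal introns. Phases 1 and 2 held 6 introns each, 19.4%, against 24.9% and 22.2%. Phase 1 introns came from RCA1, FBP and TRK alone, and phase 2 introns from RAF, TRK and RPI2 alone. Of the 26 internal segments, 11 had a length that is a multiple of 3, or 42.3%, against 40.6% of chromosomal internal segments. The introns of a gene share that gene's model, and no test was made on these shares.

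**Figure D3:**
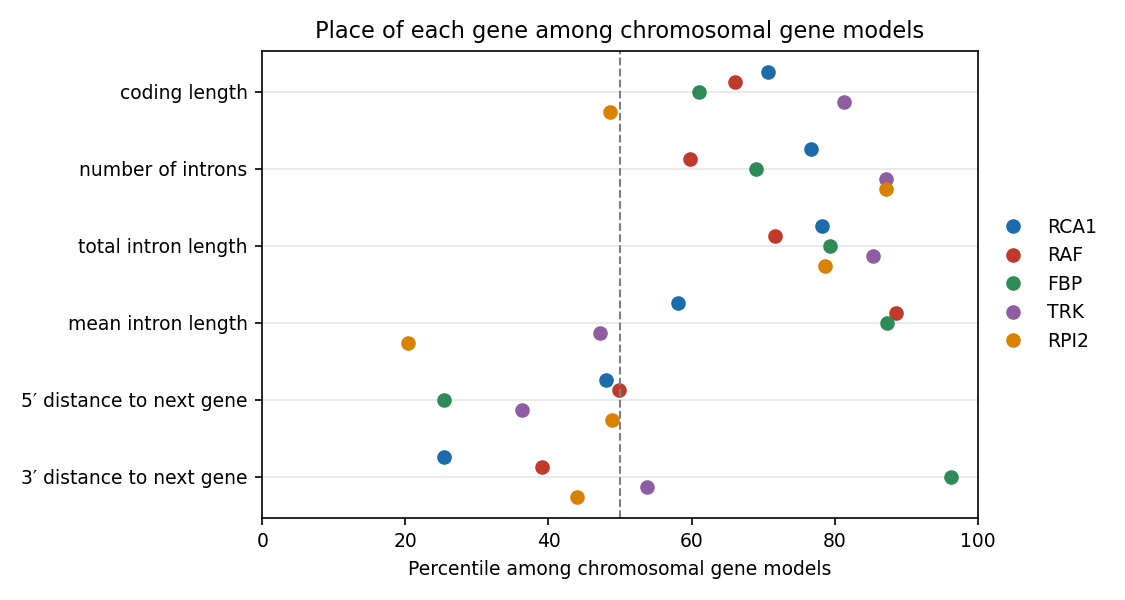
Percentile of each gene among chromosomal gene models on the x axis for the 6 measures on the y axis, with 1 point per gene and a dashed line at the 50th percentile. Intron number and total intron length lie right of the line for all 5 genes, while the distances to the next gene lie near or left of it except for FBP at its 3′ side, at the 96.2nd percentile.

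In total intron length the genes lay close together, from 1392 bases in RAF to 2078 bases in TRK, at the 71.7th to 85.4th percentiles. Genes with little in common in coding length could match in intron content: RCA1, FBP and RPI2 had 1662, 1713 and 1682 intron bases with coding regions of 1638, 1332 and 1035 bases. For coding length the order was TRK, RCA1, RAF, FBP and RPI2, at the 81.3rd, 70.6th, 66.1st, 61.0th and 48.6th percentiles.

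Other gene models with the same enzyme name differed from these genes in structure. RCA1 shares its description with RCA2 (Cz13g02230), on the plus strand of chromosome 13 (291355 to 293352). RCA1 had 1638 coding bases in 7 segments, against 1029 bases in 5 segments in RCA2, a difference of 609 bases. No segment length occurred in both, but how often unrelated gene models share a segment length was not computed. The phases were 1, 0, 0, 0, 1 and 1 in RCA1 and 1, 0, 1 and 0 in RCA2, and the score was 0.83 for RCA1 and 0.68 for RCA2.

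RPI2 shares its description with 2 gene models that are both named RPI1. RPI2 had 8 introns, whereas neither RPI1 model had any. The coding region had 1035 bases in RPI2, against 738 bases in the RPI1 model on chromosome 5 (Cz05g13260, plus strand, 1398712 to 1399449) and 825 bases in that on chromosome 9 (Cz09g17220, minus strand, 1757513 to 1758337). Their scores were 0.97 and 0.59, and that of RPI2 was 0.98. The name of the model on chromosome 9 carries the version mark and that of the model on chromosome 5 does not. Whether either replaces the other was not tested.

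No other gene carries the description of RAF, FBP or TRK. The description of FBP is spelled bisphophatase and names the chloroplast. FBP1 (Cz05g01180, chromosome 5, minus strand, 163837 to 167601) and FBP2 (Cz04g03070, chromosome 4, plus strand, 320492 to 323825) carry the standard spelling of the same enzyme and no compartment. FBP had 1332 coding bases with 5 introns, against 1239 bases with 9 introns in FBP1 and 1260 bases with 7 introns in FBP2. FBP shared no segment length with either of them, again without a count for unrelated gene models. FBP1 and FBP2 both ended in a segment of 113 bases entered in the same phase, whereas the last segment of FBP had 162 bases. Whether these models stand for different proteins or compartments was not tested, since no sequence was used.

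**Figure D4:**
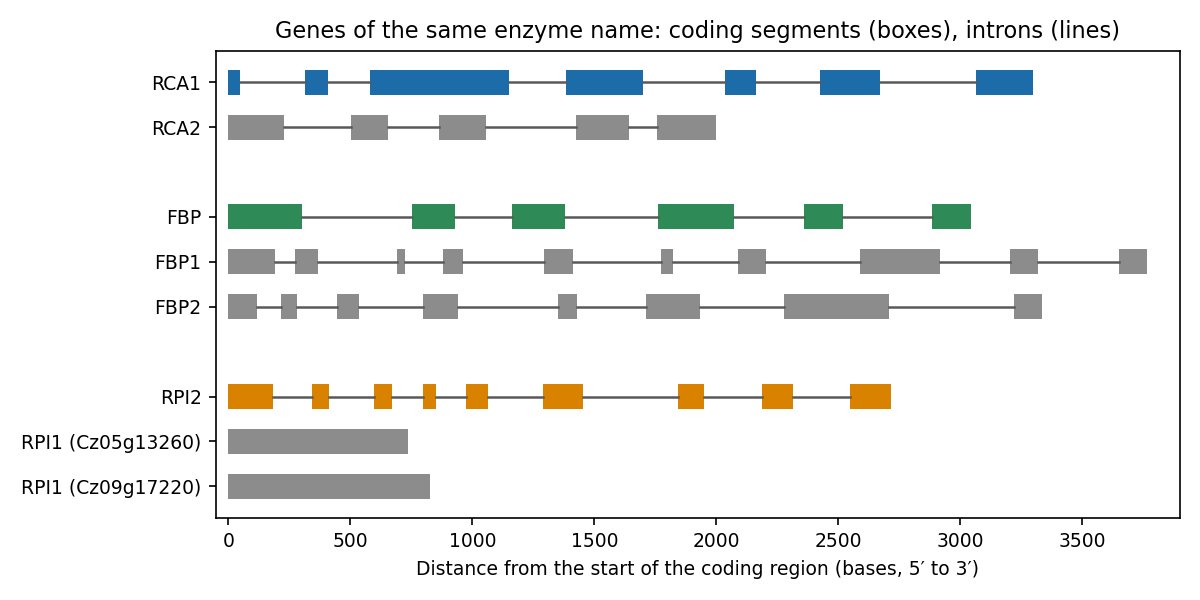
RCA1, FBP and RPI2 in colour, each above the gene models annotated with the same enzyme name in grey, with the distance from the start of the coding region in bases on the x axis; boxes are coding segments and lines are introns. Both RPI1 models are single boxes of 738 and 825 bases, while RPI2 has 9 boxes.

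A list of word patterns for the Calvin cycle and the oxidative pentose phosphate pathway matched 28 gene models, 27 on chromosomes and 1 in the plastid, among them RCA1, RAF, TRK and RPI2. FBP was missed through the spelling of its description and is counted with the 5 genes below. For Rubisco itself the patterns matched the large subunit gene rbcL in the plastid, with 1428 coding bases and no intron, and the small subunit gene RBCS (Cz17g13100) on chromosome 17, with 597 bases and 4 introns. RBCMT (Cz05g09240), annotated as a methyltransferase of the large subunit, had 1143 bases and 4 introns. No gene model matched the patterns for CP12, a regulator of the cycle, or for the concentration of carbon dioxide, such as carbonic anhydrase. As only 492 chromosomal genes have names, this says nothing about whether such genes are present.

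In the steps that spend ATP and reducing power, PRK (Cz07g08080), a phosphoribulokinase, had 258 coding bases with 1 intron, the shortest model in the list. That is 86 codons with any stop codon counted, at a score of 0.74, and whether the model covers the whole gene was not tested. PGK (Cz16g19260), a phosphoglycerate kinase, had 1437 bases with 7 introns and GAPDH (Cz05g34160), a glyceraldehyde 3-phosphate dehydrogenase, 1161 with 6. The triose phosphate isomerase TPI (Cz06g17270) had 765 bases and no intron. The 3 fructose-bisphosphate aldolases, FBA1 (Cz03g13070), FBA2 (Cz06g07090) and FBA3 (Cz05g37140), had 1053, 1191 and 1152 bases. PGK, GAPDH, TPI and the aldolases also have forms in glycolysis, and the annotation does not say which form each model is.

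Among the bisphosphatases, 2 models carry the name SBP, a sedoheptulose bisphosphatase of the regeneration phase. That on chromosome 1 (Cz01g42020) had 1194 coding bases with 7 introns, and that on chromosome 3 (Cz03g37060), described as chloroplastic, had 972 with 5. The patterns also caught FBP3A (Cz16g19090) and FBP3B (Cz12g10060), which are annotated for fructose 2,6-bisphosphate, a regulator of cytosolic sugar metabolism, and not for the cycle. TRK was the only transketolase in the list. RPE1 (Cz05g11190) and RPE2 (Cz04g31230), ribulose phosphate epimerases named here after their values were seen, had 813 bases with 5 introns and 504 bases with 1.

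GPDH1 (Cz03g12030), GPDH2 (Cz06g12080) and GND (Cz05g06160), dehydrogenases of the oxidative pentose phosphate pathway, also named after their values were seen, had 1788, 1626 and 1710 coding bases.

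The 5 genes had a median of 1494 coding bases (1035 to 2163) and of 6 introns, against a median of 1098 bases (258 to 1719) and of 5 introns in the other 20 chromosomal models matched for the cycle. None of the 5 genes lacked introns, against 3 of those 20. Over all chromosomal gene models 12110 of 14427 had an intron, so these counts set neither group apart. TRK was thus longer than any of the 20, and RPI2 stood below their median. The 5 genes were chosen by gene ID and the 20 include models for other pathways, so these figures describe the models only.

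The 5 genes lay on 3 chromosomes, with RAF, TRK and RPI2 on the plus strand and RCA1 and FBP on the minus strand, and no 2 of them were neighbours. TRK and RCA1 on chromosome 3 were 1128103 bases apart with 284 gene models between them. FBP and RPI2 on chromosome 1 were 366824 bases apart with 103 gene models between them. FBP and TRK stood at 10.5% and 10.8% of the length of their chromosomes, RPI2 at 18.4%, RAF at 23.9% and RCA1 at 38.3%.

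Of the 10 nearest gene models, 1 on each side of each gene, none has a name or a description, and of the 30 gene models within the 3 nearest on each side 1 has a name, TGDG2 (Cz01g04230) near FBP. Names are given to 3.41% of chromosomal gene models. RCA1 was followed and preceded on its own strand, by Cz03g15220 at 559 bases on the 3′ side and Cz03g15240 at 904 bases on the 5′ side. The 3′ distance was at the 25.4th percentile of chromosomal gene models.

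RAF stood between 2 gene models on the other strand. Cz09g07170 at its 5′ side, 933 bases away, is transcribed away from it, and Cz09g07200 at its 3′ side, 810 bases away, faces it. All 6 of its listed neighbours were on the other strand, but with gene models of a score of at least 0.5 alone this held for 5 of 6. That filter drops Cz09g07200, whose score is 0.35, and the 3′ distance of RAF is then 3687 bases. The nearest 5′ neighbours of the other 4 genes were on the same strand as the gene. With the filter, that of TRK is Cz03g04060, which is divergent like that of RAF. The share of neighbours on either strand over all chromosomal gene models was not computed, so these counts describe the 5 genes only.

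FBP had a 5′ neighbour on its own strand, Cz01g04260, at 584 bases, at the 25.4th percentile. On the 3′ side it faced Cz01g04240 across 3652 bases without a gene model, at the 96.2nd percentile, against a chromosomal median of 1000 bases. TRK was in a row with Cz03g04070, 732 bases upstream with a score of 0.35, and Cz03g04100, 1072 bases downstream. RPI2 followed Cz01g08180 on its own strand at 919 bases and faced Cz01g08200, a model of 363 coding bases without introns, at 893 bases. The 5′ distances, measured between coding regions, ran from 584 to 933 bases, each below the chromosomal median of 935 bases. The annotation does not place promoters or untranslated sequence within them. With scores of at least 0.5, the 5′ distance of TRK is 6386 bases, at the 92.2nd percentile, and those of the other 4 genes stay at 584 to 933 bases.

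**Figure D5:**
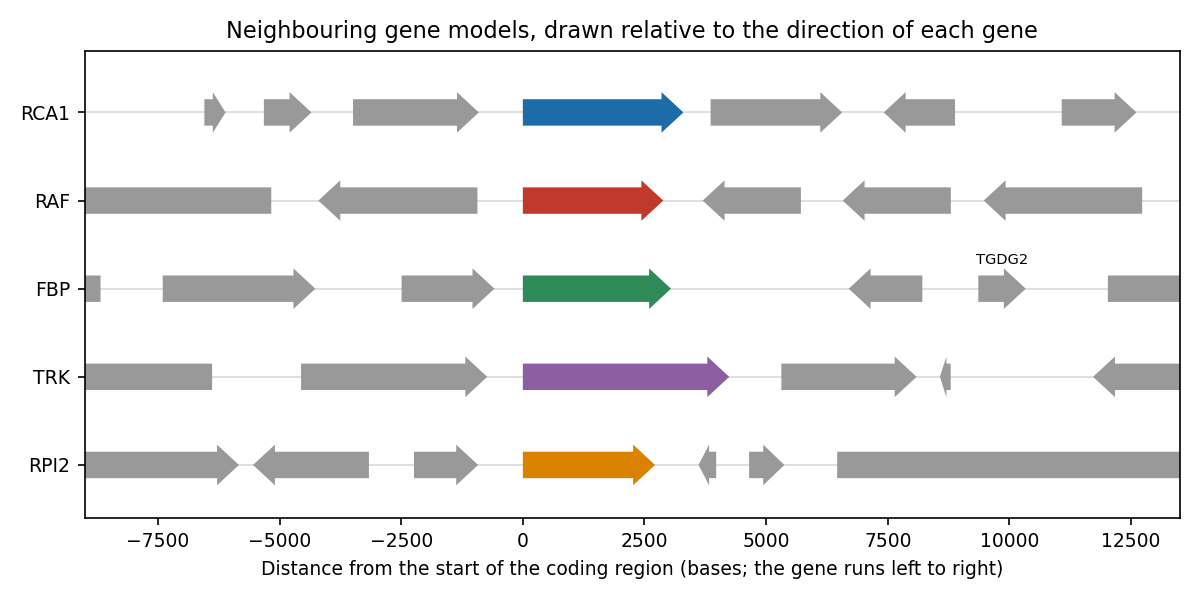
The 3 nearest gene models on each side of each gene (grey) relative to the start of its coding region, with distance in bases on the x axis and arrows pointing in the direction of each gene model; models are clipped at the frame, where they can lose their arrowhead, and those beyond it are not drawn. Every grey arrowhead around RAF points left, and of the 10 gaps next to the coloured genes that at the 3′ side of FBP, 3652 bases, is the widest when gene models of every score are drawn, as here.

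The nearest gene with a name was 6315 bases from FBP (TGDG2), 16598 from TRK (LCKAS1, Cz03g04040, a very-long-chain beta-ketoacyl ACP synthase), 42077 from RAF (CYP97C, Cz09g07100, a carotene hydroxylase), 91926 from RPI2 (OxaA2, Cz01g09150, a membrane insertion protein) and 99167 from RCA1 (OSCP, Cz03g14200, annotated as subunit O). TGDG2 has no description, and none of the other 4 is described as part of carbon fixation. Between them and the 5 genes lay 1 to 28 other gene models.

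In the order of intron phases, the genes with the most introns had no match. No other chromosomal gene had the ordered phases of TRK or of RPI2 among the 547 others with 8 introns. This is the usual case at that number, since the ordered phases of 419 of the 548 genes with 8 introns, 76.5%, were shared by no other. RCA1 had 2 genes with its ordered phases among 1012 others with 6 introns, the nearest in coding length being Cz12g24120 on chromosome 12 (2454084 to 2456098), which has 876 coding bases. FBP shared its phases with 16 of 1218 genes, among which Cz13g10010 on chromosome 13 (1002387 to 1005173) was nearest at 1398 coding bases. RAF shared its phases with 41 of 1415 genes, and Cz16g08160 on chromosome 16 (829730 to 832408) was nearest at 1545 bases. None of these 3 genes has a name, and equal phases say nothing of a shared function.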

How the data were processed

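The deposited file was a gene annotation in GFF3 form. Per the file's source column the gene models came from AUGUSTUS or were made manually, and the score of a model is as the authors deposited it. STAR 2.4.0j and Cuffdiff 2.2.1 are listed, without roles, in the submitters' processing notes, and no source used here names the genome build. The annotation has no column of per-sample values, so no depth per sample, replicate error or test applies.

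Gene, transcript and coding segment lines were read with Python 3.11.15. The reader was tested on simulated gene models. Percentiles were taken among chromosomal gene models, mean intron length only among those with an intron. The 95% exact binomial (Clopper-Pearson, SciPy 1.17.1) interval of a percentile, which covers counting only, served to judge alternatives. Alternatives were a score of at least 0.5, named genes only, all sequences, genes with an intron, other treatment of ties, no first intron, normalised descriptions and patterns on descriptions alone.

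Members and lists were chosen with earlier results of these data known. Genes named are the 5 members, their nearest neighbours, genes of equal description, up to 20 matches of the pathway list and the gene nearest in structure; others, such as FBP1 and FBP2 set beside FBP, the nearest named genes, the epimerases and dehydrogenases and the limits of 50, 100 and 500 bases, were chosen after values were seen. No sequence is printed, since none was in the files used.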

Additional observations from a re-analysis of the deposited data

How the results depend on the processing

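The median percentile of the 5 genes moved past its interval under several backgrounds. For coding length it was 66.1 among chromosomal gene models, 67.1 with scores of at least 0.5, 68.8 among named genes, 67.0 over all sequences and 61.0 among genes with an intron. For intron number, 76.7 became 70.0 among named genes, 77.5 over all sequences, 73.2 with ties not counted and 72.2 among genes with an intron. For total intron length, 78.7 became 79.5 with scores of at least 0.5, 73.1 among named genes and 79.4 over all sequences. For mean intron length, 58.1 became 54.9 among named genes. For the 5′ distance it was 48.1, and 40.5 with scores of at least 0.5. For the 3′ distance it was 44.0, and 42.8 with that filter and 34.7 among named genes. Named neighbours among the 30 numbered 1, and 2 with the score filter; 3 genes of equal description and 28 list matches were found under both settings tried for each.

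For the measures of the preceding paragraph, single genes changed sides of the 50th percentile in few cases. RAF in intron number was at the 43.3rd among named genes, and in 5′ distance, at the 49.8th, it was just above the 50th over all sequences. With scores of at least 0.5, the 5′ neighbour of TRK (score 0.35) drops out, so its 5′ distance is 6386 bases at the 92.2nd percentile, and that of RAF at its 3′ side is 3687 bases at the 81.8th. The nearest 5′ neighbour of TRK is then divergent, and 5 of the 6 listed neighbours of RAF, not 6, are on the other strand. The 3′ distance of TRK was at the 42.8th with that filter and the 45.0th among named genes. Intron density and the intron share of the span were not ranked under these alternatives. Their medians were 2.90 and 42.7% over chromosomal gene models, and 3.90 and 50.9% among named genes. In density RCA1 (3.66), FBP (3.75) and TRK (3.70) lay between these medians, RAF below both and RPI2 above both. In share RCA1 (50.4%), RAF (48.2%) and TRK (49.0%) lay between them, and FBP and RPI2 above both. Without the first intron the median intron was 263 bases in RCA1, 264 in RAF, 325 in FBP, 275 in TRK and 224 in RPI2. No paired analysis was possible because the groups hold 1 library each and no values.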

Other observations

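Gene IDs run in steps along each chromosome, and after both manually made members the next gene model by position skips a number. After RAF (Cz09g07180) the next gene model by position is Cz09g07200, and after TRK (Cz03g04080) it is Cz03g04100. After RCA1, FBP and RPI2, which came from AUGUSTUS, the next number is in use. Pairs of gene models within a numbering block were counted over all chromosomes. A number was skipped after 42 of 82 manual models, 51.2%, and after 8 of 13775 AUGUSTUS models, 0.0581%. Manual models made up 85 of 14427 chromosomal gene models and had a median of 1377 coding bases and 6 introns, against 1062 bases and 3 introns in AUGUSTUS models. What the skipped numbers stood for, and whether they are used elsewhere in the annotation, was not tested.

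The 2 manual members, RAF and TRK, hold the longest and the shortest of the 31 introns, 514 bases in RAF and 86 bases in TRK. Intron lengths were not compared between manual and AUGUSTUS models, so nothing about manual models follows from this.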
